A study of Mus musculus with 12 samples.

Results

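The comparison set 1 array of 3T3-L1 cells labelled si-Setdb1 against 1 array of 3T3-L1 cells labelled si-Ctr, both from experiment A and both harvested 36 hr after the switch to differentiation medium. These are 2 of the 12 arrays of the series, chosen by cell line, time and experiment letter. 3T3-L1 is an established mouse fibroblast-like preadipocyte line that turns into fat cells in differentiation medium. Cells of both arrays were transfected with siRNA on day -5 and again on day 0, with an siRNA against Setdb1 for the first array and with a negative control siRNA for the second, and both received 0.25 µM dexamethasone, a synthetic glucocorticoid, from day 0. Beside this pair, 4 other pairs of si-Setdb1 and si-Ctr arrays are given only as a setting for its values: 3T3-L1 cells before dexamethasone (0 hr) in experiments A and B, and 10T1/2 mesenchymal stem cells at 0 hr and after 48 hr with 0.25 µM dexamethasone. All cells are permanent lines, and 1 siRNA sequence was used per target, which limits each group as a model. No group at 36 hr has a second array, so no p-value, standard deviation or test is given for any 36 hr value, and every difference below describes these 2 arrays.

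Fat cell formation starts when glucocorticoid and other hormones induce the transcription factors Cebpb and Cebpd. These raise Pparg and Cebpa, which then hold each other on and switch on the genes for fatty acid uptake, triglyceride synthesis, lipid droplets and secreted fat cell proteins. Setdb1 is a histone methyltransferase that places trimethyl marks on lysine 9 of histone H3 and is known for silencing genes and repeats. Its partner Atf7ip (also called Mcaf1) stabilises it, and Mbd1 is a methylated DNA binding protein that can recruit the pair.

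The values are microarray signals on the linear scale on which they were deposited, with every array scaled to the same trimmed mean of 100. Each gene was read from 1 probe set, and signals under 20 were raised to 20 before a ratio was taken. A ratio with 1 array under 20 is therefore a lower bound, written as "at least". A gene entered the comparison when its signal was above 50 on at least 1 of both arrays, which held for 8816 of 20670 genes. Both arrays were alike in their technical signals. The median signal was 11.8 on the array labelled si-Setdb1 and 11.5 on the si-Ctr array, the Gapdh 3′ to 5′ ratio was 0.865 and 0.895, and 8477 and 8505 genes were above 50. On the 4 arrays of experiment B the median signal was higher, between 14.9 and 18.1, and the Gapdh ratio was lower, between 0.691 and 0.747.

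The preadipocyte label was checked against marker genes. Dlk1, a preadipocyte surface protein, had a signal of 3854.7 on the array labelled si-Setdb1 and 2725.2 on the si-Ctr array, and Pdgfra, a receptor of fat cell precursors, had 1475.5 and 1677.5 in the same order. Thy1, a fibroblast marker, had 556.2 and 771.9. Cd34, another marker of fat cell precursors, was near the bottom of the scale on both, at 4.7 and 5.6, as was the late fat cell hormone Lep, at 2.6 and 2.4. Of 51 markers of macrophages, endothelium, epithelium, muscle, neurons and liver, 0 were above 50 on either array, and the highest signal among them was 48.5 on the array labelled si-Setdb1 and 43.8 on the si-Ctr array. In such bulk RNA, fewer cells of a type and less RNA per cell cannot be told apart.

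The targeted gene itself did not separate the arrays. The only Setdb1 probe set above 50 had a signal of 154.7 on the array labelled si-Setdb1 and 179.8 on the si-Ctr array, a log2 ratio of -0.22. The remaining probe sets of Setdb1 were dim, at 22.1 and 0.4 on the array labelled si-Setdb1 and at 7.0 and 6.5 on the si-Ctr array. This difference is smaller than the standard deviation of 0.27 on the log2 scale that 1 pair of arrays showed at 0 hr, taken from the disagreement between experiments A and B over 9314 genes. In the 0 hr pair of experiment A the same probe set had 149.9 on the array labelled si-Setdb1 and 124.8 on the si-Ctr array, and in experiment B it had 143.0 and 144.8. The 10T1/2 pair at 48 hr had 209.0 and 120.5. The arrays are therefore called "labelled si-Setdb1", and each direction below follows that label. Which part of the transcript the probe set reads, relative to the siRNA, is not given in the sources used here.

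Among the known partners of Setdb1, Atf7ip was at least 2-fold apart. It had a signal of 402.8 on the array labelled si-Setdb1 and 105.9 on the si-Ctr array, a 3.80-fold difference, and its second bright probe set had 343.6 and 113.9. Both of its probe sets were also higher in the 0 hr pair of experiment A, at 484.5 and 274.4 on the array labelled si-Setdb1 and 187.3 and 88.6 on the si-Ctr array. Mbd1 was 1.82-fold higher at 36 hr, with 637.2 on the array labelled si-Setdb1 and 350.2 on the si-Ctr array. At 0 hr Mbd1 had been level, at 294.3 and 293.3 in experiment A and 309.3 and 306.2 in experiment B. Of the 30 genes above 50 in the list of the H3K9 and DNA methylation machinery, Atf7ip was the only one at least 2-fold apart. Over all genes 2.75% were at least 2-fold higher and 2.75% lower, so the list count is near that share. Ehmt2, which places dimethyl marks on the same lysine, came to 1005.3 on the array labelled si-Setdb1 and 667.2 on the si-Ctr array. Trim28, which recruits Setdb1 to zinc finger proteins, was level, at 836.4 and 897.1.

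Over the 8816 genes, 242 (2.75%) were at least 2-fold higher and 242 (2.75%) at least 2-fold lower on the array labelled si-Setdb1. The median log2 ratio of all genes was -0.03. For scale, 0 hr arrays of 1 group differed at least 2-fold between experiments A and B at 3.54% (si-Setdb1) and 4.25% (si-Ctr) of genes. The 36 hr pair, which lies within 1 experiment, gave 5.49% in both directions. At 0 hr the log2 ratio of si-Setdb1 over si-Ctr differed by at least 1 between experiments A and B at 2.09% of 9314 genes. Within experiment A at 0 hr, 1.13% of genes were at least 2-fold higher and 1.45% at least 2-fold lower on the array labelled si-Setdb1. Among the 242 higher genes, 29 had the si-Ctr array under 20, and among the 242 lower genes, 10 had the array labelled si-Setdb1 under 20. Where a gene past 2-fold had several probe sets above 50, they pointed the same way for 71 of 75 higher genes and 73 of 76 lower genes, and all of them passed 2-fold for 43 and 30.

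**Figure D1:**
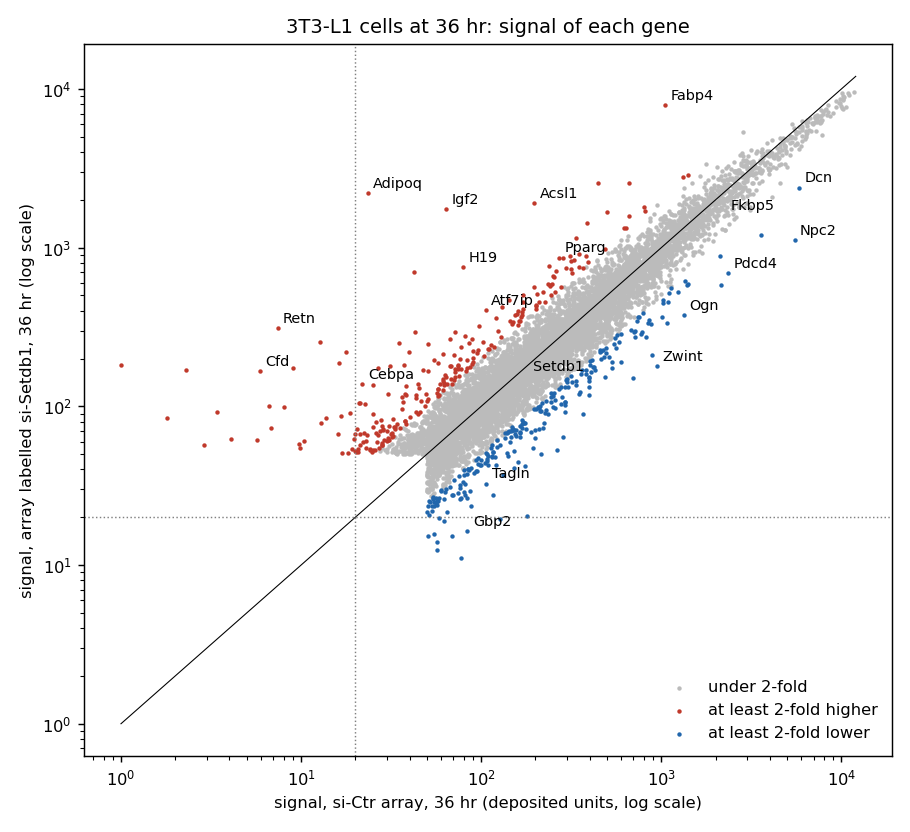
Signal of each of the 8816 genes on the array labelled si-Setdb1 (vertical axis) and the si-Ctr array (horizontal axis) at 36 hr, both on log scales, with signals under 1 drawn at 1, equal signals on the black line and the floor of 20 dotted. The 242 genes at least 2-fold higher are red and the 242 at least 2-fold lower are blue; Adipoq, Igf2 and Acsl1 lie far above the line, Npc2, Ogn and Zwint below it, and Setdb1 close to it.

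The genes of fat cells stood out among the higher ones. In the union of 6 lists of fat cell genes (transcription factors, lipid droplet, uptake, lipid synthesis, secreted proteins and fatty acid oxidation) 134 genes were above 50. Of these, 34 (25.4%, where 2.75% of all genes were) were at least 2-fold higher on the array labelled si-Setdb1 and 1, Lcn2, was at least 2-fold lower. Their median log2 ratio was 0.22, so most members lay close to level and a minority lay far out. The lists were drawn up with earlier results of these arrays known, so the counts are a description.

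Among the adipogenic transcription factors, 5 of 26 above 50 were at least 2-fold higher and 0 lower, or 3 and 0 with a floor of 50. Over all genes the share was 2.75% each way. Cebpa, a master regulator of fat cell identity, had a signal of 137.8 on the array labelled si-Setdb1 and 21.9 on the si-Ctr array, a 6.29-fold difference. Pparg, its partner in that role and the receptor for the thiazolidinedione drugs, had 865.8 and 270.8 in the same order, 3.20-fold apart. Ppargc1b, a coactivator of mitochondrial genes, had 220.5 and 39.7. The lipid-sensing receptor Nr1h3 had 68.0 on the array labelled si-Setdb1 and 26.2 on the si-Ctr array, and Ppard, another one, had 92.2 and 45.6. Both passed 2-fold but not with a floor of 50, where their log2 ratios were 0.44 and 0.88. The hormone-induced factors that act before Pparg did not follow them. Cebpb had 1737.8 on the array labelled si-Setdb1 and 1509.1 on the si-Ctr array, Cebpd had 1512.6 and 1502.9, and Klf9, a glucocorticoid-induced factor, had 1894.0 and 1878.4. Each of these differences is below the 0 hr standard deviation of 0.27 on the log2 scale, although the dimmest of the 6 readable Klf9 probe sets had 55.6 and 21.3. Stat5a and Srebf1, regulators of Pparg and of lipid synthesis, lay between, with log2 ratios of 0.91 and 0.62. Klf4, which switches on Cebpb early in the programme, was lower, with 364.6 on the array labelled si-Setdb1 and 667.5 on the si-Ctr array.

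Secreted fat cell proteins held the largest differences, with 9 of 19 genes at least 2-fold higher, where 2.75% of all genes were. Their median log2 ratio was 0.75. Adipoq, the gene for adiponectin, was read at 2198.3 on the array labelled si-Setdb1 and 23.5 on the si-Ctr array, a 93.5-fold difference and the largest of all 8816 genes. Retn, which encodes resistin, had 310.9 and 7.4, at least 15.5-fold higher, and Cfd, the complement factor adipsin, had 167.0 and 5.9, at least 8.35-fold higher. In all 3 the si-Ctr array lay at or near the floor. Hp (haptoglobin), Rarres2 (chemerin) and Agt (angiotensinogen) were also readable on the si-Ctr array. Hp had 767.5 on the array labelled si-Setdb1 and 237.5 on the si-Ctr array, Rarres2 had 470.2 and 141.8, and Agt had 830.6 and 327.4. Igf1, a growth factor, was 2.24-fold higher, at 331.0 and 147.8, although on both arrays it was well below its 0 hr signals of 1504.8 and 703.1. Lcn2, an iron carrier of the acute phase, ran the other way, with 216.7 on the array labelled si-Setdb1 and 495.2 on the si-Ctr array.

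Among lipid droplet and lipolysis genes 5 of 17 were at least 2-fold higher (4 with a floor of 50) and 0 lower. Over all genes the share was 2.75% each way. Fabp4, the fatty acid carrier of fat cells, had 7876.1 on the array labelled si-Setdb1 and 1053.3 on the si-Ctr array, and all 4 of its probe sets above 50 were higher. Cidec, which fuses lipid droplets, had 174.5 and 9.0, at least 8.72-fold higher. Fitm2, which helps droplets bud, and Pnpla2, the lipase that starts triglyceride breakdown, were 2.67-fold and 2.15-fold higher. G0s2, an inhibitor of Pnpla2, had 56.7 on the array labelled si-Setdb1 and 2.9 on the si-Ctr array, and fell short of 2-fold with a floor of 50. Structural genes of caveolae, the membrane pits of fat cells, were level, with Cav1 at 5640.7 and 6023.8 and Cavin1 at 1863.6 and 1719.9. The droplet coat gene Plin2 was read at 1944.0 on the array labelled si-Setdb1 and 1335.1 on the si-Ctr array, short of 2-fold.

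Fatty acid and glucose uptake genes gave 6 of 20 at least 2-fold higher (4 with a floor of 50) and 0 lower. Over all genes the share was 2.75% each way. The list had a median log2 ratio of 0.51. Acsl1, the enzyme that activates fatty acids for triglyceride synthesis, had 1909.4 on the array labelled si-Setdb1 and 196.6 on the si-Ctr array, 9.71-fold apart, and all 4 readable probe sets were higher. The fatty acid transporter Cd36 had 251.7 and 35, with a second probe set at 171.5 and 44.4. Lpl, the lipase that frees fatty acids from lipoproteins, was bright on both arrays, at 5315.3 and 2846.1, and stayed just short of 2-fold, with 1880.4 and 1004.0 on its second probe set. The neighbouring apolipoprotein genes Apoc1 and Apoe were at or under the floor on the si-Ctr array. Apoc1 had 188.7 on the array labelled si-Setdb1 and 16.2 on the si-Ctr array, and Apoe had 84.0 and 1.8. Slc2a4, the insulin-responsive glucose transporter, did not reach 50 on either array, at 32.3 and 3.0, whereas Irs2, an insulin receptor substrate, had 60.0 and 22.2.

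Lipid synthesis held 7 of 25 genes at least 2-fold higher and 0 lower, where 2.75% of all genes were each way. With a floor of 50 the count was 4, since Gpat3, Gpd1 and Thrsp then fell short. Dgat2, which makes the last bond of triglyceride, had 182.7 on the array labelled si-Setdb1 and 37.2 on the si-Ctr array, and Dgat1, which catalyses the same step, had 565.5 and 196.8. Upstream of them in the triglyceride pathway, Agpat2 had 587.8 and 246.9, Gpat3 had 57.5 and 9.7, and Gpd1, which supplies glycerol phosphate, had 60.8 and 10.4. Pcx, which feeds carbon into the mitochondrial cycle, was 2.87-fold higher, and Thrsp, a lipogenic gene of uncertain biochemical role, had 92.6 and 3.4. Fasn, the fatty acid synthase, had 673.2 on the array labelled si-Setdb1 and 607.2 on the si-Ctr array. Scd1, which desaturates fatty acids, had 514.9 and 456.7, and Acly, which makes cytosolic acetyl-CoA, had 1405.2 and 1206.3. These 3 log2 ratios, 0.15, 0.17 and 0.22, are all under the 0 hr standard deviation, though Fasn and Scd1 were picked after their values were seen. Fatty acid oxidation and mitochondrial genes showed few large differences. Pdk4, which spares glucose, had 453.5 on the array labelled si-Setdb1 and 171.3 on the si-Ctr array, and Cycs, the electron carrier cytochrome c, had 2766.1 and 1324.2. Of 24 mitochondrial genes 22 were above 0 with a median log2 ratio of 0.27, and of 27 oxidation and peroxisome genes 20 were above 0 with a median of 0.12, where 47.1% of all genes were above 0.

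**Figure D2:**
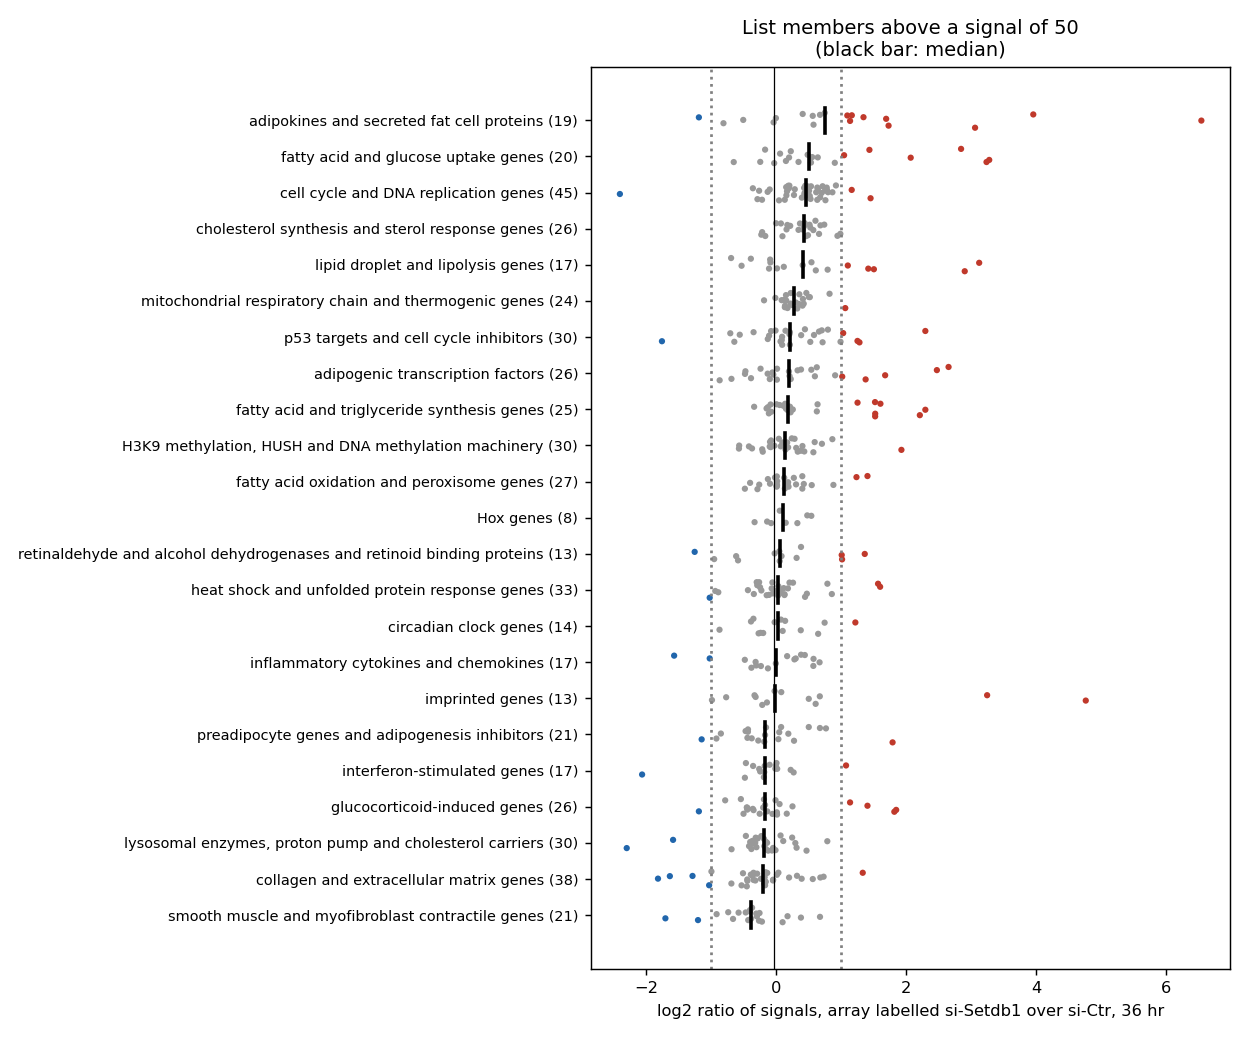
Log2 ratio of signals, array labelled si-Setdb1 over si-Ctr at 36 hr, for the members above 50 of each list with at least 5 such members (their number in brackets); black bars are list medians, red and blue points lie at least 2-fold higher or lower, dotted lines mark 2-fold and the thin line the median of all genes. Secreted fat cell proteins have the highest median, 0.75, and contractile genes the lowest, -0.39.

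Some of the fat cell genes were already apart before dexamethasone. Of the 34 that were at least 2-fold higher at 36 hr, 14 were at least 2-fold higher at 0 hr in experiment A too, out of 24 above 50 there. Of all 242 higher genes it was 65 of 194, and over all genes of that pair 1.13% were at least 2-fold higher. The other 10 of the 34 were under 50 on both 0 hr arrays of experiment A and were not counted there, since signals this dim are hard to read. Cd36 was among them but was apart, with 49.9 on the array labelled si-Setdb1 and 3.6 on the si-Ctr array. Its second probe set had 53.5 and 0.2. Experiment B gave 14 of 25 above 50, with some other members: Cd36 had 113.0 on its array labelled si-Setdb1 and 5.3 on the si-Ctr array, and Agt had 107.1 and 23.6. Adipoq was far apart in experiment A, with 1068.7 on the array labelled si-Setdb1 and 3.8 on the si-Ctr array at 0 hr. Cebpa was nearly as far apart at 0 hr, with 119.7 and 21.6, as at 36 hr, and so was Pparg, with 365.8 and 130.5. Over the 36 hr Cebpa stayed near its 0 hr signal on both arrays, while Pparg reached 2.37-fold its 0 hr signal on the array labelled si-Setdb1 and 2.08-fold on the si-Ctr array. Retn, Cfd, Cidec and Mrap, a gene outside the lists, were under 20 on both 0 hr arrays of experiment A. On the array labelled si-Setdb1 they had 9.5, 16.5, 10.8 and 15.6, against 3.0, 0.4, 0.4 and 0.6 on the si-Ctr array. At 36 hr the si-Ctr array was still under 20 for all 4, and Mrap, which escorts melanocortin receptors to the membrane, had 169.8 on the array labelled si-Setdb1 and 2.3 on the si-Ctr array.

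The difference in Fabp4 narrowed. It had 1345.8 on the array labelled si-Setdb1 and 26.9 on the si-Ctr array at 0 hr. Between 0 and 36 hr Fabp4 gained 5.85-fold on the array labelled si-Setdb1 and 39.2-fold on the si-Ctr array, so that the log2 ratio was 2.90 at 36 hr against 5.64 at 0 hr. Acsl1 widened instead, since it gained 4.20-fold on the array labelled si-Setdb1 and 1.02-fold on the si-Ctr array. Hp gained on both arrays from signals under 20, to 767.5 on the array labelled si-Setdb1 and 237.5 on the si-Ctr array. The ratios between times use the same 36 hr arrays as the ratios between siRNAs and are not separate evidence.

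**Figure D3:**
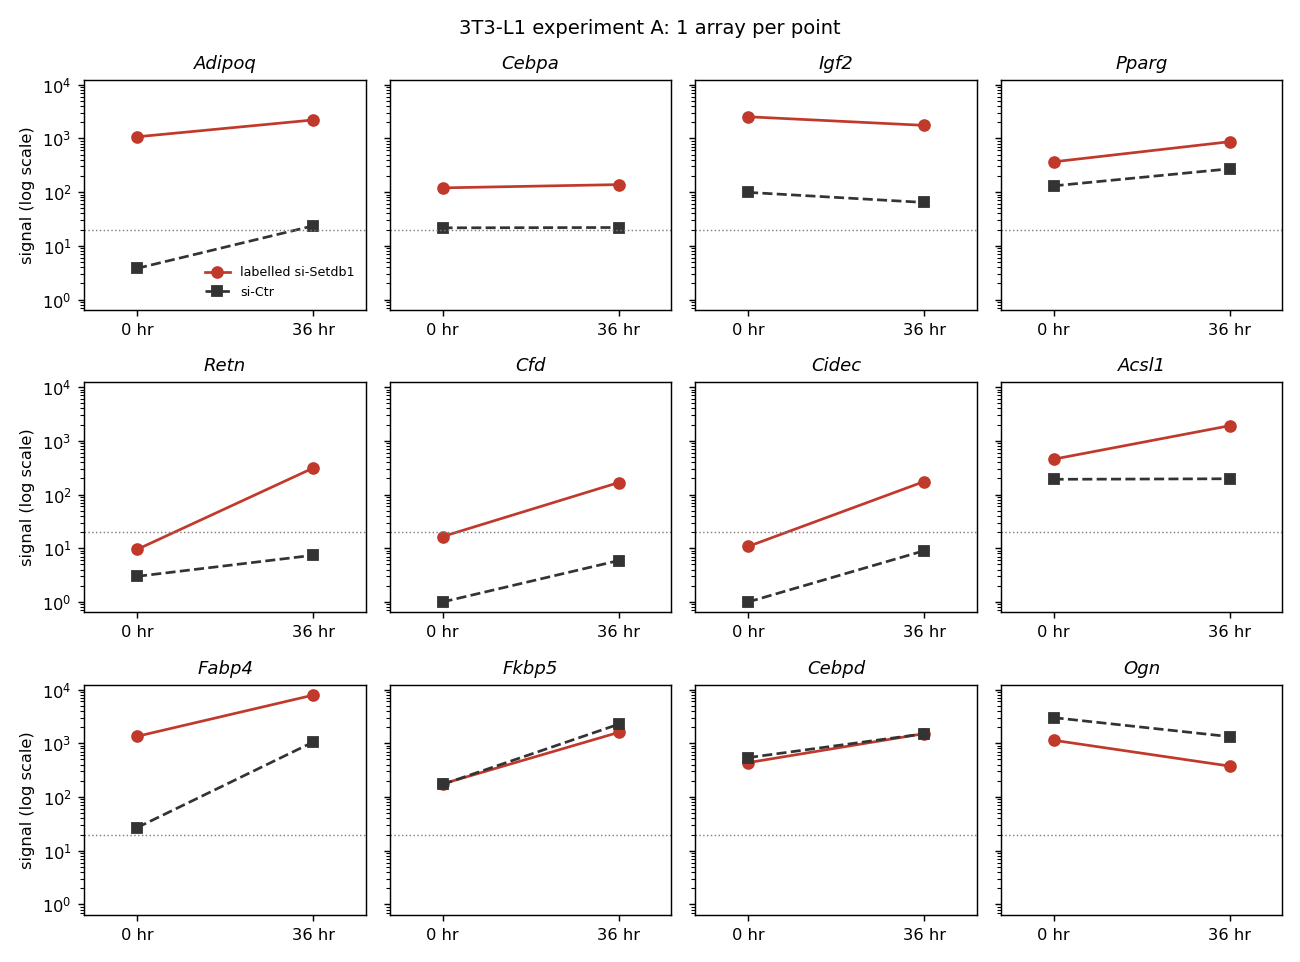
Signals of 12 genes at 0 hr and 36 hr in 3T3-L1 cells of experiment A, on a log scale, red circles for the arrays labelled si-Setdb1 and black squares for si-Ctr, 1 array per point, with signals under 1 drawn at 1 and the floor of 20 dotted. Adipoq, Cebpa and Igf2 are apart at both times, and Retn, Cfd and Cidec are above the floor only on the 36 hr array labelled si-Setdb1. Fkbp5 and Cebpd climb with both siRNAs, Fkbp5 by 9.09-fold with si-Setdb1 and 13.2-fold with si-Ctr.

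To show the sequence next to the start of genes with different courses, the 250 bases before the transcription start are given for 2 that were apart at 0 hr (Adipoq and Cebpa), 2 that were dim at 0 hr (Retn and Cfd) and 1 that was lower (Npc2, described below). The sequences are RefSeq promoter entries of build GRCm38.p6, read 5′ to 3′ on the gene's strand; 135 of the 185 genes chosen for naming have an entry. Adipoq lies at chr16:23146286-23146535 on the plus strand, Cebpa at chr7:35119043-35119292 on the plus strand, Retn at chr8:3655520-3655769 on the plus strand, Cfd at chr10:79890603-79890852 on the plus strand and Npc2 at chr12:84773113-84773362 on the minus strand. Capitals mark matches on either strand to TATAAA, the TATA box, to CCAAT, the CCAAT box, and to TTGCNNAA, a C/EBP motif.
Adipoq: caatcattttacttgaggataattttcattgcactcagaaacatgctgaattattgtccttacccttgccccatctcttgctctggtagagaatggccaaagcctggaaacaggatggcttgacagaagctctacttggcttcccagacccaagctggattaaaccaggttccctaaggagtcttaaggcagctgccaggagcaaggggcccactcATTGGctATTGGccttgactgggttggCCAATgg
Cebpa: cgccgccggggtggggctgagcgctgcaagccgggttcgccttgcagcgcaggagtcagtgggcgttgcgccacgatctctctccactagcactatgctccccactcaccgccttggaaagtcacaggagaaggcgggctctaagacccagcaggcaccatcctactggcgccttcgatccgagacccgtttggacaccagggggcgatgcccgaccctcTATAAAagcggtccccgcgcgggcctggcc
Retn: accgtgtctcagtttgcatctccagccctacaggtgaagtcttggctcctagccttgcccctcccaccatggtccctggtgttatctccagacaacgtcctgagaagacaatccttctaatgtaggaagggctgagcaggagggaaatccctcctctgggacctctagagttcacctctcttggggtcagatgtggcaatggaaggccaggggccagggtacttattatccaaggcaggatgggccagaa
Cfd: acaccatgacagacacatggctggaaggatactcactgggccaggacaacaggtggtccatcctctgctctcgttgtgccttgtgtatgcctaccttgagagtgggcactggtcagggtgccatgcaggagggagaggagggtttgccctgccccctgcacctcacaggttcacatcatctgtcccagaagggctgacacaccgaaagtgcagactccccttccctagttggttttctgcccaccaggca
Npc2: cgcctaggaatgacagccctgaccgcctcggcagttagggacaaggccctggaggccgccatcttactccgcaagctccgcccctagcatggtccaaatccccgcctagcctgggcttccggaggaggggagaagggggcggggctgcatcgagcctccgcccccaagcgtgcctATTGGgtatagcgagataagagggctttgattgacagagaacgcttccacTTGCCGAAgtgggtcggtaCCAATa
The Adipoq window holds 3 CCAAT boxes, all near the start, and the Cebpa window holds 1 TATA box. The Npc2 window holds 2 CCAAT boxes and 1 C/EBP motif, and the Retn and Cfd windows hold none of these motifs. TGTTCT, the core of the glucocorticoid receptor motif, was also searched on both strands and is in none of the 5 windows. Among all 32851 RefSeq windows of this length, 12.4% hold TATAAA, 33.8% CCAAT, 9.56% TTGCNNAA and 16.1% TGTTCT. A match describes these letters only.

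Outside the fat cell lists, 2 neighbouring imprinted genes were far apart. Igf2, a fetal growth factor, had 1745.1 on the array labelled si-Setdb1 and 64.1 on the si-Ctr array, 27.2-fold apart, and H19, a noncoding RNA from the same locus, had 751.3 and 79.1, 9.50-fold apart. Both were higher on the array labelled si-Setdb1 at 0 hr too. Igf2 had 2522.8 and 98.7 in experiment A and 1270.8 and 200.2 in experiment B. The remaining 11 imprinted genes above 50 were all under 2-fold, and the list had a median log2 ratio of -0.03. Further high genes were Car3, a carbonic anhydrase abundant in fat, with 253.6 on the array labelled si-Setdb1 and 12.8 on the si-Ctr array, and Gsta4, a glutathione transferase that clears lipid peroxidation products, with 2542.6 and 447.6. Car3 was already apart at 0 hr in experiment A, at 338.1 and 9.2, whereas Gsta4 had 945.1 and 641.7 there. Scarb1, the HDL receptor, had 179.1 on the array labelled si-Setdb1 and 31.2 on the si-Ctr array, and Abhd15, a fat cell protein, had 173.9 and 26.8. Germline genes, which are often silenced by H3K9 methylation and DNA methylation, were mostly dim, with 3 of 31 above 50. Of these 3, 2 were at least 2-fold higher (0 with a floor of 50) and 0 lower, where 2.75% of all genes were each way. The homeobox gene Rhox5 had 67.0 on the array labelled si-Setdb1 and 19.8 on the si-Ctr array, with 76.7 and 15 at 0 hr in experiment A. Tdrkh had 51.4 and 20.8 at 36 hr.

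Glucocorticoid-induced genes rose between 0 hr and 36 hr with both siRNAs. Dexamethasone, the change of medium and the time in culture differ together between the 0 hr and 36 hr arrays and cannot be told apart. Of the 25 glucocorticoid-induced genes above 50 at either time, 17 were at least 2-fold higher at 36 hr than at 0 hr with si-Setdb1 and 17 with si-Ctr, where 2.18% and 2.17% of all genes were. At least 2-fold lower were 1 and 0 of them, where 2.69% and 3.19% of all genes were. Fkbp5, a chaperone that feeds back on the receptor, had 1594.6 on the 36 hr array labelled si-Setdb1 and 2262.8 on the si-Ctr array, from 0 hr signals of 175.5 and 171.7. The metal-binding gene Mt1 had 7482.7 and 10144.0, and Tsc22d3, which mediates anti-inflammatory effects, had 2304.9 and 3364.3. Between the 36 hr arrays, 17 of the 26 genes above 50 were below 0 on the log2 scale, where 52.8% of all genes were. Their median was -0.18. At least 2-fold higher were 4 and lower 1, where 2.75% of all genes were each way. Those higher were Hsd11b1, which regenerates active glucocorticoid, with 196.0 on the array labelled si-Setdb1 and 54.5 on the si-Ctr array, and Ndrg2, Pdk4 and Angptl4. Angptl4, an inhibitor of Lpl that is also a Pparg target, had 363.8 and 165.5. Lcn2 was the lower one.

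Genes of proliferation were slightly higher as a group. Of 45 cell cycle genes above 50, 38 were above 0, where 47.1% of all genes were, with a median log2 ratio of 0.46. Of the 45, 2 were at least 2-fold higher and 1 lower, where 2.75% of all genes were each way. Rrm2, the small subunit of ribonucleotide reductase, had 715.5 on the array labelled si-Setdb1 and 261.5 on the si-Ctr array, with its 3 readable probe sets all higher, and Ccne2, a cyclin of the entry into S phase, had 74.5 and 33.3. The replication licensing gene Mcm5 had 576.6 and 316.7, and the proliferation marker Mki67 had 396.5 and 231.4, both picked after their values were seen. The brightest members under 2-fold were closer to level or lower. Ccnd2 had 4002 on the array labelled si-Setdb1 and 3569.3 on the si-Ctr array, Pcna had 2871.9 and 2789, and Ccnd1 had 989.5 and 1210.1. At 0 hr the median of the list was 0.15 in experiment A and -0.05 in experiment B. Zwint, a kinetochore protein, was the gene at least 2-fold lower, with 179.1 on the array labelled si-Setdb1 and 951.2 on the si-Ctr array. However, its probe sets disagreed: of 5 above 50, 3 were higher and 2 lower. Cholesterol synthesis genes also leaned higher, with 22 of 26 above 0, where 47.1% of all genes were. Their median was 0.43, yet none reached 2-fold.

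Targets of p53 and inhibitors of the cell cycle gave 4 of 30 at least 2-fold higher and 1 lower, where 2.75% of all genes were each way. Gdf15, a stress hormone, had 104.6 on the array labelled si-Setdb1 and 21.3 on the si-Ctr array. The death receptor gene Fas had 148.5 and 61.1, and Ccng1, a p53-induced cyclin, had 2886.8 and 1413.4. The other readable Ccng1 probe sets fell just short of 2-fold, with log2 ratios of 0.97 and 0.88. Mdm2, another p53 target, was close to level, at 4153.5 and 3608.6, with 4682.7 and 4586.2 on its second probe set. Cdkn2a, which encodes inhibitors that stop the cycle, was not higher, at 1915.5 on the array labelled si-Setdb1 and 2998.0 on the si-Ctr array. Pdcd4, an inhibitor of translation, was the lower gene, with 692.1 and 2345.9, and it had been lower at 0 hr in experiment A, with 855.1 and 1708.9. Heat shock and unfolded protein genes were level as a list, with a median log2 ratio of 0.03 over 33 genes. Of these, 2 were at least 2-fold higher and 1 lower, where 2.75% of all genes were each way. Hspa1b, an inducible chaperone, had 863.8 on the array labelled si-Setdb1 and 285.1 on the si-Ctr array. Herpud1 was lower, with 365.6 and 744.4, and its second probe set, at 212.9 and 365.5, fell short of 2-fold.

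Matrix and contractile genes leaned to the lower side. Of 38 matrix genes above 50, 29 were below 0, where 52.8% of all genes were. Their median log2 ratio was -0.21 (-0.087 after quantile normalisation). Of the 38, 4 were at least 2-fold lower and 1 higher, where 2.75% of all genes were each way. Ogn, a small proteoglycan, had 376.3 on the array labelled si-Setdb1 and 1330.5 on the si-Ctr array, 3.54-fold lower, with its second probe set at 192.7 and 747.5. The collagen-binding proteoglycan Dcn had 2384.9 and 5833.2, and the fibril collagen gene Col11a1 had 191.5 and 596.6. The fibrillar collagen gene Col1a2 was slightly lower, with 7760.4 on the array labelled si-Setdb1 and 9897.3 on the si-Ctr array. The probe sets of Col3a1 disagreed in size, with 7636.5 and 10022.7 on the brighter and 854.3 and 2480.3 on the second, which is more than 2-fold lower. Signals this bright leaned to the lower side throughout the array pair: the median log2 ratio of the 394 genes with a mean signal over 2000 was -0.10, and the part of this in the collagen values was not tested. Spp1, which encodes osteopontin, ran the other way, with 400.9 and 159.3. Among 21 contractile genes of smooth muscle and myofibroblasts, 17 were below 0, where 52.8% of all genes were, and the median was -0.39. Of the 21, 2 were at least 2-fold lower and 0 higher, where 2.75% of all genes were each way. Tagln, an actin-binding protein, had 32.6 on the array labelled si-Setdb1 and 106.5 on the si-Ctr array, the tropomyosin gene Tpm1 had 445.2 and 1026.9, and Acta2, smooth muscle actin, had 1807.7 and 2868.8. At 0 hr the median of the contractile list was -0.38 in experiment A and -0.06 in experiment B.

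Single genes from other systems were lower by as much. Npc2, which carries cholesterol inside lysosomes, had 1112.8 on the array labelled si-Setdb1 and 5493.9 on the si-Ctr array, 4.94-fold lower, and its 3 readable probe sets all pointed that way. Atp6v1d, a subunit of the lysosomal proton pump, had 272.3 and 819.7 on its brightest probe set. Its other readable ones had 199.0 and 434.5, and 347.2 and 596.8, the latter short of 2-fold. The other 28 lysosomal genes above 50 were under 2-fold, and the median of the list was -0.19. Rtl3, a gene derived from a retrotransposon, had 20.3 on the array labelled si-Setdb1 and 180.0 on the si-Ctr array, 8.87-fold lower. This was the largest fall among the genes chosen for naming with both arrays at 20 or more. The lower signal lay barely above the floor of 20, and with a floor of 50 the log2 ratio was -1.85. On the 0 hr arrays of experiment A Rtl3 had been dim, at 2.7 and 7.9. Fbxo32, a ubiquitin ligase subunit of muscle wasting, had 19.4 and 127.3 on its brightest probe set, and its 2 other readable ones, at 41.1 and 77.7 and at 32.9 and 51.1, fell short of 2-fold. Gbp2, an interferon-induced GTPase, had 16.4 and 83.8, at least 4.19-fold lower, but 37.4 and 63.4 on its second probe set. Tlr4, the receptor for bacterial lipopolysaccharide, had 29.2 on the array labelled si-Setdb1 and 86.9 on the si-Ctr array. Its second readable probe set, at 39.4 and 70.3, fell short of 2-fold. The interferon list as a whole held 1 gene at least 2-fold higher and 1 lower among 17 (0 and 0 with a floor of 50). The inflammatory list held 0 higher and 2 lower among 17 (0 and 1 with a floor of 50). Over all genes 2.75% were at least 2-fold apart each way.

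Genes that hold cells in the preadipocyte state were mixed. Of 21 above 50, 1 was at least 2-fold higher and 1 lower, where 2.75% of all genes were each way. The median log2 ratio was -0.17. The cartilage and progenitor factor Sox9 had 131.8 on the array labelled si-Setdb1 and 292.4 on the si-Ctr array, and Ly6a, a surface marker of mesenchymal progenitors, had 1726.3 and 3119.2. Sfrp2, a Wnt modulator, was higher, at 212.5 and 61.4. Mgp, a matrix protein that holds back calcification, was named from the bone and cartilage list instead. It had 890.8 on the array labelled si-Setdb1 and 2130.2 on the si-Ctr array. Over the 36 hr Mgp gained 1.70-fold on the array labelled si-Setdb1 and 3.41-fold on the si-Ctr array.

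The 36 hr differences were set beside the 4 other pairs, which share no array with them. Of the 242 higher genes, 194 were above 50 in the 0 hr pair of experiment A, and 177 of these were above 0 there, where 48.6% of all genes were. In the 0 hr pair of experiment B it was 140 of 192, where 49.6% of all genes were, and 36 reached 2-fold, where 0.966% of all genes did. The 10T1/2 pair at 0 hr gave 121 of 171, where 51.2% of all genes were, and 27 reached 2-fold. The 10T1/2 pair at 48 hr gave 173 of 197, where 45.1% of all genes were, and 89 of them reached 2-fold, where 3.57% of all genes did. Of the 242 lower genes, 213 of 217 were below 0 in the 0 hr pair of experiment A, where 51.3% of all genes were, and 186 of 209 in that of experiment B, where 50.3% were. In 10T1/2 cells it was 161 of 197 at 0 hr, where 48.7% of all genes were, and 179 of 196 at 48 hr, where 54.8% were. Of the 34 fat cell genes at least 2-fold higher at 36 hr, 31 were above 50 in 10T1/2 cells at 48 hr and 26 were at least 2-fold higher there, against 89 of 197 for all higher genes. Retn had 648.3 on the array labelled si-Setdb1 and 4.4 on the si-Ctr array in that pair, and Agpat2 had 1264.6 and 170.8.

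In all 5 pairs 8 genes were at least 2-fold higher and 4 at least 2-fold lower. Over all genes 1.6% were higher and 1.39% lower by 2-fold in the 10T1/2 pair at 0 hr, 0.955% were lower in the 0 hr pair of experiment B, and 2.86% were lower in the 10T1/2 pair at 48 hr. The higher ones were Adipoq, Igf2, Apoc1, Fabp4, Cebpa, Apoe, Atf7ip and Plaat3, and the lower ones Adh7, Cisd2, Tug1 and Npc2. Plaat3, a phospholipase of fat tissue, had 1430.6 on the array labelled si-Setdb1 and 388.7 on the si-Ctr array at 36 hr, with log2 ratios between 1.53 and 2.50 over the 5 pairs. Tug1, a long noncoding RNA, had 352.0 and 853.2, with log2 ratios between -1.42 and -1.11, and Cisd2, an iron-sulphur protein of the mitochondrial and endoplasmic membranes, had 47.6 and 114.2. The lines differed in other genes. Car3 was higher with si-Setdb1 in every 3T3-L1 pair but had 43.9 on the array of that label and 77.7 on the si-Ctr array in 10T1/2 cells at 48 hr. Map7d2, a microtubule-associated protein, was lower at 36 hr, with 53.4 on the array labelled si-Setdb1 and 262.3 on the si-Ctr array, and higher in 10T1/2 cells at 48 hr, with 442.9 and 91. These contrasts rest on 1 pair per line and time and were not tested.

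**Figure D4:**
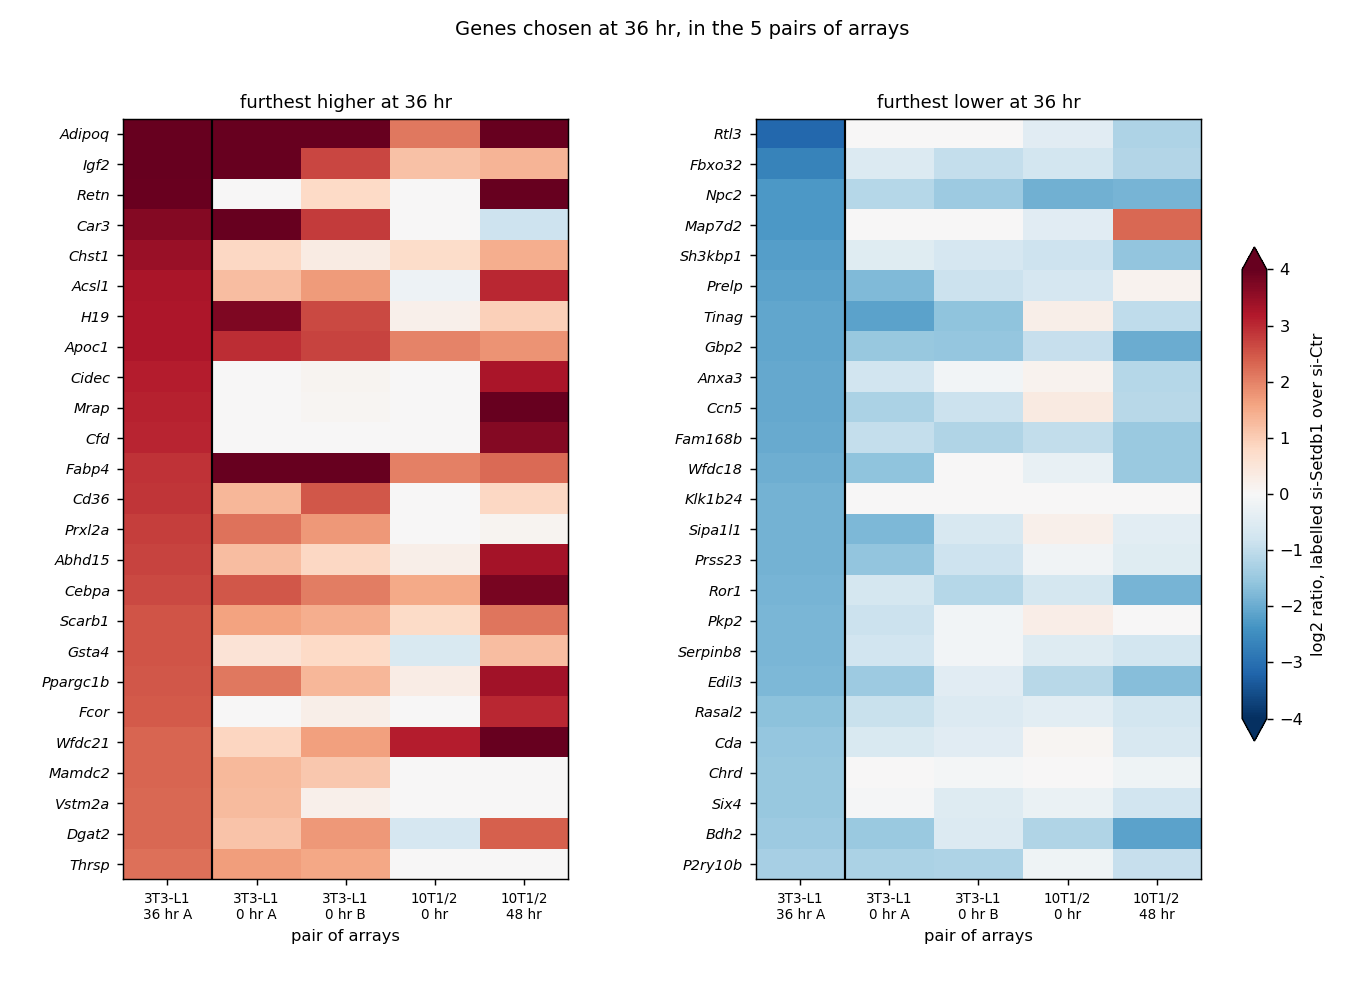
Log2 ratio of signals, array labelled si-Setdb1 over si-Ctr, in the 5 pairs of arrays (columns) for the 25 genes furthest higher and the 25 furthest lower at 36 hr that the naming rule chose (rows); red is higher, blue lower, colours saturate at 4, and pairs with both arrays under 20 are at 0 (white). The left column of each panel set the choice, so only the other 4 columns add to it; Adipoq and Fabp4 are red in all 5, Retn, Cidec, Mrap and Cfd are strong only at 36 hr and in 10T1/2 cells at 48 hr, and Npc2 is blue in all 5.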

How the data were processed

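Total RNA was labelled as biotinylated cRNA for Affymetrix arrays, per the labels' protocols. The authors deposited 1 linear intensity per probe set and array, and the values have a trimmed mean of 100 on each array (2% off each end). The labels and file headers name no software, background correction or detection calls. The values of both deposited tables are identical. The annotation of 45101 probe sets gave 20670 genes after symbols were updated through RefSeq, each read from its brightest probe set over the 12 arrays.

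Ratios were computed in Python 3.11.15 with pandas 2.3.3 from signals floored at 20, for genes above 50 on at least 1 array of a pair. With 1 array per group there is no test, and a change of 2-fold was counted. The computation was tested on simulated data. The spread came from the 0 hr pairs of experiments A and B, so it may be partly technical, and the number of arrays limits the precision.

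The comparison, the 29 gene lists and the naming rule were chosen with earlier results of these data known. The rule took the Setdb1 partners and main fat cell genes, up to 8 members per list past 2-fold and its 3 brightest others, and the 15 furthest measured and 10 furthest bounded genes per direction whose probe sets agreed, leaving out predicted genes. Not all are printed. Genes named outside it (Stat5a, Srebf1, Klf4, Plin2, Fasn, Scd1, Tsc22d3, Mcm5, Mki67, Plaat3, Cisd2, Tug1, and the markers Pdgfra, Thy1, Cd34 and Lep) were chosen after their values were seen, except the markers, which served the check of the cell type. Alternatives were quantile normalisation, centring, other floors, a pseudocount, another minimum, the mean of probe sets and other folds.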

Additional observations from a re-analysis of the deposited data

How the results depend on the processing

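With a fold of 1.5 in place of 2, 730 genes were higher and 815 lower, and with a fold of 3 it was 73 and 36. Both follow from the construction of the count. Under the other 8 alternatives the counts stayed within 1.5 times the values reported, between 165 and 256 higher and between 176 and 242 lower genes. The medians of the inflammatory, imprinted and clock lists lie near 0 and changed sign under some of them, and no named gene that was at least 2-fold apart changed sign. The median of the lipid droplet list was 0.18 with a floor of 50. With a minimum signal of 100, the median was 1.09 for the secreted fat cell proteins and -0.13 for the inflammatory genes. With the mean of all probe sets it was -0.30 for the preadipocyte genes and 0.16 for the inflammatory genes, and with quantile normalisation it was -0.087 for the matrix genes. The cause of these shifts was not tested. The log2 ratio of Zwint came to between -2.41 and -0.18 over the alternatives, the weaker end with the mean of its probe sets. Dim genes depend on the floor. With a floor of 50, 28 of the 109 genes chosen for naming that were at least 2-fold apart no longer were, G0s2, Gpat3, Gpd1, Irs2, Rhox5, Nr1h3 and Gbp2 among them, and the 34 higher fat cell genes became 26. Apoe came to between 0.75 and 5.03 and Retn to between 2.64 and 5.25 on the log2 scale. No paired analysis was possible because each group at 36 hr holds 1 array and no result comes from a test. The depth of an array is its signal over background, and signals under 20 were read as bounds.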
